A study of Mus musculus with 12 samples.

Results

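Peaks on ERVK repeats are regions of accessible chromatin whose centre lies in a long terminal repeat (LTR) element of the ERVK class. They were taken from the master peak-list of an assay for transposase-accessible chromatin with sequencing (ATAC-seq), as every peak whose repeat annotation named an LTR of class ERVK. There were 1147 such peaks among 84243 in all, a share of 1.36% (95% Wilson interval, 1.29 to 1.44%), and 3 of them carried the class name with a question mark. The list was made from 12 samples of C57BL/6 mice aged 8 to 12 weeks, with 2 replicates of each of 6 sorted cell types. These were hematopoietic stem cells (HSCs), megakaryocyte progenitors (MkPs), erythroid progenitors (EPs), granulocyte/macrophages (GMs) and B cells, all labelled bone marrow, and T cells, labelled thymus. The authors pooled the peaks of all samples into the list, which gives each peak a position of 499 bp, a repeat name and a nearest promoter, but no value per sample and no cell type, so the ERVK peaks could not be compared between the 6 cell types.

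ERVK elements, also called class II endogenous retroviruses, are copies of retroviral genomes that were inserted into the germline, and in the mouse they include the intracisternal A particles (IAPs) and the ETn/MusD elements. A complete copy has an LTR at each end, and the LTR holds the promoter and enhancer sequences that transcription factors of the host cell can bind. Most copies are kept silent by DNA methylation and by zinc-finger proteins that recruit TRIM28 and SETDB1, and many have lost their internal part through recombination, which leaves a solo LTR.

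Nearly every peak on IAPEY4_LTR, the LTR of an IAP-related element, held the same set of binding motifs. The first sequence below is 300 bases of its reference member, the peak with the highest summed similarity to the other IAPEY4_LTR peaks, printed because 4 motifs that recur in this subfamily all lie in it. Sequences are from RefSeq's GRCm38.p6 assembly (mm10), 5′ to 3′, and capitals mark, from left to right, an EBF motif, a C/EBP motif, an E-box and a CTCF motif.

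IAPEY4_LTR near Cyp4f18 (chr8:72024814-72025113, plus strand): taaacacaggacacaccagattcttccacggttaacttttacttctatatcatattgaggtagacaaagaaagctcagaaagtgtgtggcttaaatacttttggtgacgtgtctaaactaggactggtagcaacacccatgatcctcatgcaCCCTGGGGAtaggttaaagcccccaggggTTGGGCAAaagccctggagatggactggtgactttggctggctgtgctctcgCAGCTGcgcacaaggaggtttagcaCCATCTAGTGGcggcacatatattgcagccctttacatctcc
IAPEY4_LTR near Apol7e (chr15:77684133-77684199, plus strand): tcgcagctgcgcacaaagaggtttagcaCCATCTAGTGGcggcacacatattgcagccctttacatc
IAPEY4_LTR near Tsn (chr1:118012901-118012967, plus strand): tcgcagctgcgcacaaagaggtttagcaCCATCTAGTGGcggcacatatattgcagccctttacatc

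In the reference member, counted from the first base printed, the EBF motif occupied positions 153 to 161, the C/EBP motif 182 to 189, the E-box 234 to 239 and the CTCF motif 259 to 269. The Apol7e and Tsn windows, from the members most similar to it, show the CTCF motif alone in capitals.

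The next windows are from RLTR45, where capitals mark the RUNX motif AACCACA, and from RMER19B, where capitals mark the AP-1 motif TGANTCA. In this broad form of the AP-1 motif N is any base. The RMER19B windows hold A or T there, and the forms were not counted apart. Both sets come from the members most similar to the reference member of their subfamily. They were printed because these motifs were more frequent in these subfamilies than in all peaks. AP-1 was also frequent in other ERVK subfamilies, such as RMER6A (84.2% of peaks), RLTR17 (82.4%), RMER19A (47.8%) and RMER17C (44%). In RMER19B the NF-Y motif had a higher share relative to all peaks than AP-1 had.

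RLTR45 near Clpx (chr9:65288361-65288423, plus strand): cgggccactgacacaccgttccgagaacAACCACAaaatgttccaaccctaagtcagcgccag
RLTR45 near Bhmt (chr13:93582539-93582601, plus strand): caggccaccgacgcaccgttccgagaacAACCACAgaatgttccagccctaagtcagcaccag
RLTR45 near 2810474O19Rik (chr6:149348272-149348334, plus strand): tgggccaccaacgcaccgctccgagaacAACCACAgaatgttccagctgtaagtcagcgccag
RMER19B near Kbtbd12 (chr6:88637768-88637830, plus strand): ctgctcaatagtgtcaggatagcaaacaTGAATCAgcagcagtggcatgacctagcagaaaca
RMER19B near Papolb (chr5:142521669-142521731, plus strand): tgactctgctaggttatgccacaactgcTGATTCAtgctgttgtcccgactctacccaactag
RMER19B near Chmp3 (chr6:71555569-71555631, plus strand): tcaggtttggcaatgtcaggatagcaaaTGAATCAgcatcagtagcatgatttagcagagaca

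The last windows show the motif with the highest share relative to all peaks in RMER4B (RUNX) and in MLTR11B (PU.1, GAGGAAGT), and a pair of motifs in RLTR17, an AP-1 motif followed by the GATA motif AGATAA. The RLTR17 peaks were picked among those with both motifs, as the ones whose GATA motif lay nearest to the peak centre.

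RMER4B near 4930441H08Rik (chr7:71243623-71243685, plus strand): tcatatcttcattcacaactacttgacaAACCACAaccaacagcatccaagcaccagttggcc
RMER4B near Kcnk6 (chr7:29230574-29230636, minus strand): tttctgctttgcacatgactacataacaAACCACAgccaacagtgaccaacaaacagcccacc
MLTR11B near Adam23 (chr1:63437771-63437834, minus strand): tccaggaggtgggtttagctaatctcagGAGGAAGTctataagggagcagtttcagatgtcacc
RLTR17 near Nrip1 (chr16:76444775-76444836, minus strand): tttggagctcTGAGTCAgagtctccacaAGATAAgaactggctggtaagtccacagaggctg
RLTR17 near Il1rl2 (chr1:40303406-40303467, plus strand): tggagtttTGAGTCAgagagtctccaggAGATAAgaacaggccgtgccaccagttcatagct

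ERVK peaks made up 20.7% of the 5543 peaks on LTR elements (95% Wilson interval, 19.6 to 21.8%) and 9.0% of the 12746 peaks on any named repeat. The other LTR peaks belonged mostly to the ERVL-MaLR class, with 3378 peaks. The 1147 ERVK peaks carried 207 subfamily names, of which 50 named a single peak and 29 named at least 10. RLTR names other than RLTRETN took 471 peaks, RMER 386, MLTR 120 and IAP 69, while names of the ETn/MusD elements took 13. Only 117 peaks (10.2%) were on an internal part of an element by its name, and the remainder carried names without such a mark. Accessible ERVK sequence in this list was spread over many names, and the IAP group, which includes elements that still insert in mice, held 6.02% of it.

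The 10 subfamilies with the most peaks held 354 of the peaks (30.9%). RMER19B led with 68 peaks, followed by MLTR11B with 51, RLTR45 with 41, RMER4B with 39 and IAPEY4_LTR with 33. MLTR11A had 32 peaks, RMER17C had 25, RMER17B and RMER19A had 23 each, and RMER6A had 19. The genome holds different numbers of copies of each subfamily, so these counts do not rank how readily a copy is accessible.

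**Figure D1:**
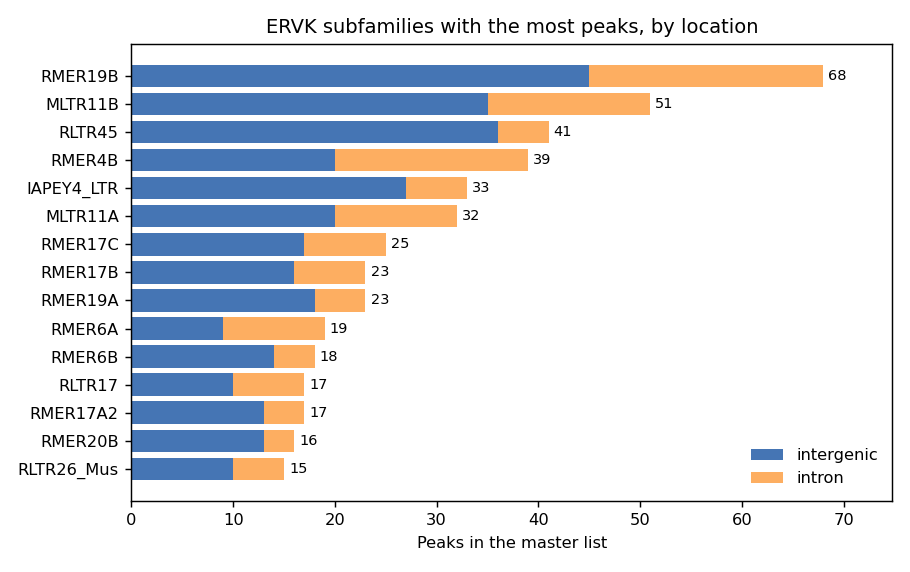
Number of peaks (x axis) on the 15 ERVK subfamilies with the most peaks (y axis), split into intergenic (blue) and intron (orange) peaks. RMER19B leads with 68 peaks, and RLTR45 has 36 intergenic and 5 intron peaks.

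ERVK peaks were found outside genes more often than other peaks of the same kind. Here and below, percentages of peaks carry 95% Wilson intervals, and differences carry Newcombe intervals, in percentage points. These intervals cover counting error only, and copies of a repeat share descent, so they are not independent. Of the ERVK peaks, 791 were intergenic and 356 lay in an intron (31%, 28.4 to 33.8%). Among other LTR peaks the intron share was 40.5%, a difference of -9.47 points (-12.5 to -6.37). Among the 52028 intron and intergenic peaks on no named repeat, the share was 53.6%, a difference of -22.6 points (-25.2 to -19.8). A peak had a repeat name only if it was intergenic or intronic, so promoter and exon peaks were in none of these groups.

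The share of peaks in introns varied between subfamilies. It was lowest among the leading ones in RLTR45, with 5 of 41 peaks in an intron (12.2%, 5.32 to 25.5%), and IAPEY4_LTR, with 6 of 33 (18.2%, 8.61 to 34.4%). RMER4B had 19 of 39 peaks in an intron (48.7%, 33.9 to 63.8%) and RMER6A 10 of 19 (52.6%, 31.7 to 72.7%). The intervals of RLTR45 and RMER4B did not overlap, whereas those of most other subfamilies did. The leading subfamilies lay on 11 to 19 chromosomes each, and the ERVK peaks as a whole lay on all 19 autosomes and on the X chromosome. The X chromosome held 40 of them (3.49%), beside 2.17% of all peaks, and no ERVK peak was listed on the Y chromosome.

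ERVK peaks lay about as far from promoters as other LTR peaks but farther from other peaks. The median distance from an ERVK peak to the nearest transcription start site (TSS) was 25.2 kb, with quartiles of 11.6 and 63.7 kb, and the median of other LTR peaks was 27.1 kb. Within 10 kb of a TSS lay 21.5% of ERVK peaks, beside 21.9% of other LTR peaks, a difference of -0.34 points (-2.94 to 2.41), and 26.2% of peaks outside repeats, a difference of -4.69 points (-7.01 to -2.19). More than 100 kb from a TSS lay 15.9% of ERVK peaks, beside 14% of peaks outside repeats, a difference of 1.82 points (-0.201 to 4.07). Distance to a TSS thus differed little, and 4 ERVK peaks lay within 1 kb of one. The difference was clearer in the distance to other peaks. No other peak lay within 50 kb of 96 ERVK peaks (8.37%, 6.9 to 10.1%), beside 3.75% of other LTR peaks and 3.48% of peaks outside repeats. The difference from other LTR peaks was 4.62 points (3.03 to 6.44).

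The authors dropped reads that align to several places, so how far a copy can be told apart from the others bears on whether a peak is called there. All overlapping words of 100 bases, the length of 1 read, were unique in the genome in 1017 of the 1147 ERVK peaks (88.7%, 86.7 to 90.4%), beside 97.7% of other LTR peaks and 98.5% of peaks outside repeats. With words of 50 bases the shares were 54.5%, 79.9% and 90.2%. Of the 69 peaks with IAP names, 20 had unique words throughout (29%, 19.6 to 40.6%), whereas 118 of the 120 MLTR peaks had (98.3%). Copies that are closer to identical than these could be open without entering the list, and how many are was not tested.

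**Figure D2:**
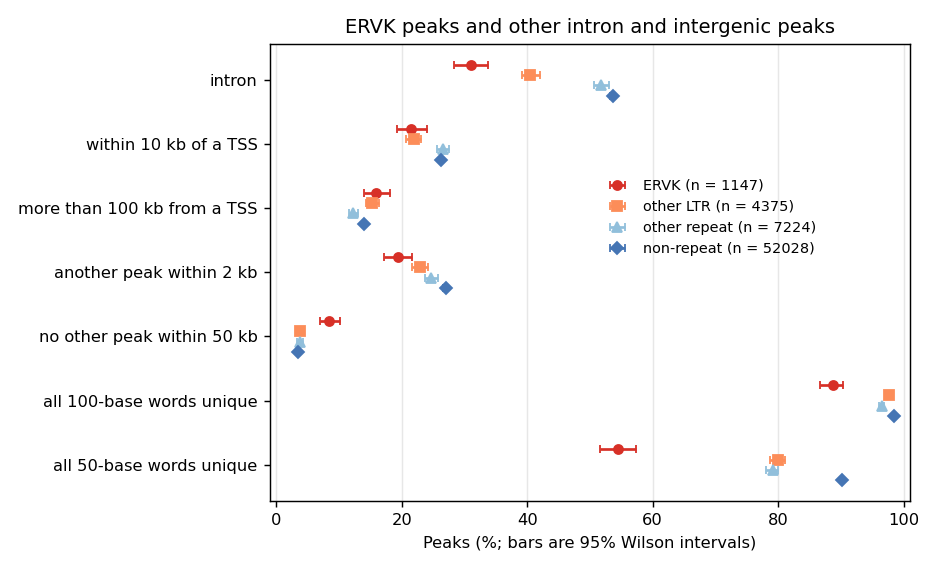
Share of peaks (x axis, %) with each property (y axis) for ERVK peaks (red circles), other LTR peaks (orange squares), peaks on other repeats (light blue triangles) and intron or intergenic peaks outside repeats (dark blue diamonds), with 95% Wilson intervals. ERVK peaks have the lowest intron share (31%), the highest share with no other peak within 50 kb (8.37%) and the lowest share of unique sequence.

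The base content of ERVK peaks was close to that of other LTR peaks, with a median GC content of 46.7% and 46.5%, beside 47.7% in peaks outside repeats. Subfamilies differed more, from a median of 44.1% in RMER6A to 54.1% in RMER17B among the 10 with the most peaks.

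Motifs of 18 transcription factor families were searched on both strands of each peak, over its whole 499 bp. In ERVK peaks a median of 35.7% of the bases were soft-masked, that is, marked as repeat in the reference, so a match can lie outside the repeat. A match is a string of letters and not a measured binding site, and the share in all 84243 peaks, which are of the same length, is given as the background. Of the 18 motifs, 7 were more frequent in ERVK peaks than in peaks outside repeats by intervals above 0, 3 were less frequent, and for 8 the interval included 0. The largest difference was for the NF-Y motif, CCAATNAG, the CCAAT box of many promoters. It was present in 13.4% of ERVK peaks, 7.18% of other LTR peaks and 4.87% of peaks outside repeats, and in 6.04% of all peaks. The ERVK share was higher by 8.56 points (6.7 to 10.7) than outside repeats.

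Motifs of the factors that direct blood lineages were also present in these peaks, whether in the repeat or in its flank. The GATA motif, bound by GATA1 and GATA2 in erythroid, megakaryocyte and stem cells, was in 31.9% of ERVK peaks and 27.5% of peaks outside repeats, a difference of 4.45 points (1.79 to 7.23). The C/EBP motif TTNNGCAA, bound by myeloid factors, was in 25% and 21.5%, a difference of 3.51 points (1.07 to 6.12). RUNX motifs were in 22.1% and 18%. The AP-1 motif TGANTCA, a broad form of the site of FOS and JUN proteins, was in 22.4% and 17.4%. Differences in the opposite direction were found for the ETS motif AGGAAG (61.7% and 66.3%), the IRF motif GAAANNGAA (14% and 17.8%) and the motif of CTCF, the protein that anchors chromatin loops (5.06% and 9.64%). Against other LTR peaks the difference was 0.366 points (-2.25 to 3.13) for RUNX and 0.828 points (-0.465 to 2.36) for CTCF. Neither motif thus set ERVK apart from other LTR peaks. GATA (27.7%), C/EBP (16.7%) and AP-1 (15.5%) were less frequent in other LTR peaks than in ERVK peaks, and IRF (16.6%) more frequent. In peaks on other repeats GATA was in 30.1%, RUNX in 20.9% and CTCF in 5.63%. ETS motifs also separated ERVK from other LTR peaks, of which 75.6% held one, a difference of -13.9 points (-17 to -10.8). The longer ETS form of PU.1, GAGGAAGT, which overlaps the ETS motif by construction, was in 11.7% of ERVK peaks and 23% of other LTR peaks.

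The class share of CTCF came mostly from 1 subfamily. Of the 58 ERVK peaks with a CTCF motif, 32 were on IAPEY4_LTR (55.2%), and of the 106 with the EBF motif CCCNNGGGA, bound by the B-cell factor EBF1, 32 were on IAPEY4_LTR as well (30.2%). Other motifs were spread more widely. RMER19B contributed 39 of the 257 peaks with an AP-1 motif (15.2%) and 18 of the 154 with an NF-Y motif (11.7%).

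Across the 15 subfamilies with at least 15 peaks, 270 pairs of subfamily and motif were described. In 12 of them at least 50% of the peaks held the motif at 3 or more times its share in all peaks. IAPEY4_LTR gave the most uniform set. The CTCF motif was in 32 of its 33 peaks (97%, 84.7 to 99.5%), beside 7.68% of all peaks. The EBF motif was in 32 (97%, beside 9.84%), the C/EBP motif in all 33 (beside 19.3%) and the E-box CAGCTG, bound by basic helix-loop-helix factors, in 29 (87.9%, beside 29.8%). The ETS motif, present in 62.4% of all peaks, was in 4 of these peaks (12.1%), and no IAPEY4_LTR peak held a RUNX or PU.1 motif.

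The members of the other subfamilies were less alike. In RLTR45 the RUNX motif was in 29 of 41 peaks (70.7%, 55.5 to 82.4%, beside 16.1% of all peaks) and the C/EBP motif in 26 (63.4%, 48.1 to 76.4%), with 20 peaks holding both. The PU.1 motif was in 13 of them (31.7%, 19.6 to 47%), and none held AP-1. RMER19B had AP-1 in 39 of 68 peaks (57.4%, 45.5 to 68.4%, beside 15.3% of all peaks), the E-box CAGCTG in 37 (54.4%) and NF-Y in 18 (26.5%, 17.4 to 38%). MLTR11B held ETS in 43 of 51 peaks (84.3%) and PU.1 in 13 (25.5%, 15.5 to 38.9%, beside 9.39%). RMER4B held ETS in 32 of 39 (82.1%) and RUNX in 15 (38.5%, 24.9 to 54.1%).

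Smaller subfamilies had motif sets of their own. All 18 RMER6B peaks held an ETS motif, 10 of them the PU.1 form (55.6%, 33.7 to 75.4%), and 9 held RUNX. AP-1 was in 16 of 19 RMER6A peaks (84.2%, 62.4 to 94.5%) and in 14 of 17 RLTR17 peaks (82.4%, 59 to 93.8%). RLTR17 also held GATA in 11 of 17 peaks (64.7%, 41.3 to 82.7%), and in the 10 peaks with both motifs their starts lay 17 to 20 bp apart, as in the windows printed above. GATA was further present in 16 of 32 MLTR11A peaks (50%, 33.6 to 66.4%). NF-Y was in 7 of 15 RLTR26_Mus peaks (46.7%, 24.8 to 69.9%).

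**Figure D3:**
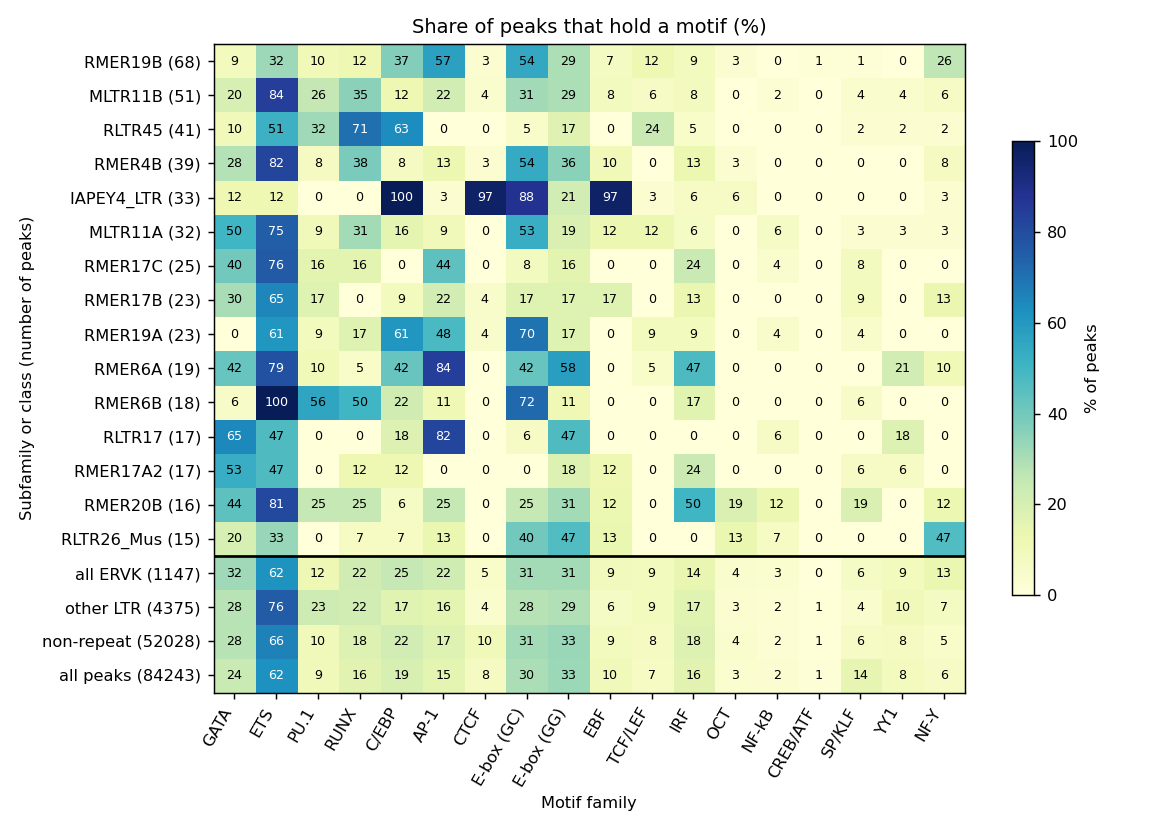
Share of peaks (%, colour and printed value) that hold each motif (x axis) for the 15 ERVK subfamilies with at least 15 peaks and, below the line, for all ERVK peaks, other LTR peaks, peaks outside repeats and all peaks (y axis, number of peaks in brackets). E-box (GC) is CAGCTG and E-box (GG) is CAGGTG. IAPEY4_LTR stands out by CTCF and EBF (97% each), RLTR45 by RUNX (70.7%), and RMER6A and RLTR17 by AP-1 (84.2% and 82.4%).

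Peak centres fell at a set place on some repeats. Members were aligned to the reference member of their subfamily, and positions were counted along the part of it that at least 25% of the other members shared. The centre lay inside the alignment in 31 of 32 IAPEY4_LTR, 39 of 40 RLTR45, 23 of 36 RMER4B and 54 of 67 RMER19B members. Other centres were placed by extending from the nearer end of the alignment. On IAPEY4_LTR, whose shared part was 331 bp, the 32 aligned centres had a median position of 258, with quartiles of 250 and 279. On RLTR45 (484 bp) the 40 aligned centres had a median of 239, with quartiles of 197 and 268. RMER4B was looser, with 36 centres on 468 bp and quartiles of 99 and 249. In MLTR11B, 23 of the 51 members aligned to the reference member, over a median of 62 bp. The part that at least 25% of the others shared was only 13 bp, so no position was given for that subfamily.

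RMER19B centres were divided at position 400 into a pair of groups. Of the 67 aligned members, 35 had their centre at position 223 to 361 and 32 at 409 to 890 of the 767 bp shared part or just beyond it. In 54 of the 67 the centre lay inside the alignment, and the others were placed by extension. The split at 400 bp was chosen after the positions were seen, so the motif counts on either side are a description. Whether the positions form separate clusters was not tested. AP-1 was present in 29 of the 35 members of the first group and 9 of the 32 of the second, and NF-Y in 4 of the 35 and 14 of the 32. AP-1 and NF-Y were therefore mostly carried by different RMER19B peaks, and 4 of the 68 held both.

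**Figure D4:**
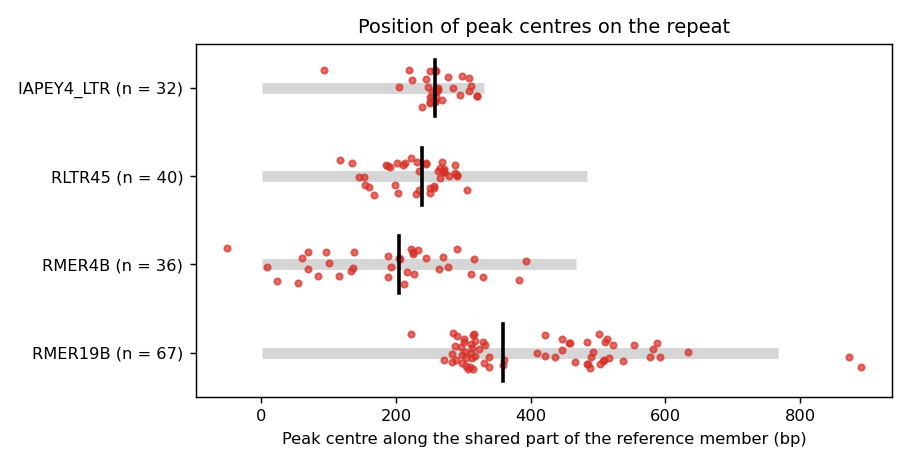
Position of each peak centre (red points, jittered vertically) along the shared part (grey bar, bp, x axis) of the reference member of 4 subfamilies, with the median as a black line. Centres outside their alignment are placed by extension. IAPEY4_LTR centres gather between 250 and 279, and RMER19B centres fall on both sides of position 400.

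The motifs lay at different distances from the peak centre. In IAPEY4_LTR the CTCF motif was a median of 36 bp from the centre (quartiles, 17 and 45 bp), the E-box 22 bp and the C/EBP motif 44 bp, while the EBF motifs were 115 bp away. In the 28 peaks with both, the CTCF motif and the E-box started 25 to 30 bp apart, and none of the 32 peaks with CTCF and C/EBP motifs had them overlapping. AP-1 motifs in RMER19B were a median of 25 bp from the centre, and NF-Y motifs 54 bp. In RLTR45 the RUNX motif lay farther out, a median of 148 bp away, and the C/EBP motif 78 bp.

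Only a small part of the genomic copies had a peak, so copies with and without one were compared. Copies were the matches to the shared part of the reference member with at least 70% identity over at least 50% of its length, and a copy had a peak if a centre from the list lay in it. The reference member, itself a peak, was counted among the copies. IAPEY4_LTR had 155 copies, of which 34 had a peak (21.9%, 16.1 to 29.1%). RLTR45 had 1567 copies and 42 with a peak (2.68%, 1.99 to 3.6%), RMER19B 1266 and 26 (2.05%, 1.41 to 2.99%), and RMER4B 1397 and 10 (0.716%, 0.389 to 1.31%). The share of IAPEY4_LTR copies with a peak was above the intervals of the others at this limit. With at least 80% identity asked, it was 22.3% in IAPEY4_LTR and 25% in RMER19B, the latter from 8 copies. These 8 include the reference member, and 1 of the 7 at 80 to 85% identity had a peak (14.3%, 2.57 to 51.3%). The order of these subfamilies was therefore not settled at this limit. These matches took in 31 of the 33 IAPEY4_LTR peaks and 39 of the 41 RLTR45 peaks, but 26 of the 68 RMER19B and 10 of the 39 RMER4B peaks, so for RMER19B and RMER4B they describe the closer relatives of the reference member. Of the IAPEY4_LTR copies with a peak, 3 were named RLTR46B by the authors' annotation, and 3 of the RLTR45 copies ERVB4_2-LTR_MM.

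Over all copies, the CTCF motif separated IAPEY4_LTR copies with a peak from those without. It was present in 30 of the 34 copies with a peak (88.2%, 73.4 to 95.3%) and in 36 of the 121 without (29.8%), a difference of 58.5 points (41.3 to 68.7). Put the other way, 30 of 66 copies with the motif had a peak (45.5%, 34 to 57.4%), and 4 of 89 without it (4.49%, 1.76 to 11%). The EBF motif did not separate them, at 97.1% and 95%, a difference of 2.02 points (-10.3 to 7.97). The C/EBP motif and the E-box CAGCTG were more frequent in copies with a peak, by 40.3 points (23 to 51.5) and 36.9 points (18.7 to 49.6).

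Part of these differences came with incomplete copies. Among the 87 copies aligned over at least 80% of the 331 bp, a limit added after the values were seen, C/EBP was in 93.8% of the copies with a peak and 94.5% of those without, a difference of -0.795 points (-15.1 to 9.63). The CTCF motif was in 30 of 32 (93.8%) and 34 of 55 (61.8%), a difference of 31.9 points (13.8 to 45.9). Uniqueness also differed, with a median of 70.6% unique 100-base words in copies with a peak and 45.5% in those without. Among copies with at least 50% unique words, CTCF was in 19 of 22 copies with a peak (86.4%) and 14 of 59 without (23.7%), a difference of 62.6 points (39.4 to 75.3). With both limits, it was in 19 of 20 and 13 of 16 copies, a difference of 13.7 points (-8.48 to 38.4), so among the 36 copies that were both long and largely unique no difference was detectable. Of the copies with a CTCF motif and at least 50% unique words, 19 of 33 had a peak (57.6%, 40.8 to 72.8%), beside 11 of 33 with the motif and fewer unique words (33.3%, 19.8 to 50.4%).

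In RLTR45 the RUNX motif was in 28 of the 42 copies with a peak (66.7%, 51.6 to 79%) and in 747 of the 1525 without (49%), a difference of 17.7 points (2.36 to 30.3). This was not seen among copies with at least 50% unique words, where the shares were 66.7% and 64.8%, a difference of 1.9 points (-13.5 to 14.6). The C/EBP motif had a similar course, with a difference of 20.8 points (5.49 to 33.8) over all copies and 8.15 points (-7.27 to 21.2) over the largely unique ones. Of the RLTR45 copies without a peak, 506 had under 50% unique words, and no copy with a peak had.

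RMER19B gave a different picture for its leading motifs. NF-Y, the motif with the highest share relative to all peaks, was in 6 of the 26 copies with a peak (23.1%) and 469 of the 1240 without (37.8%), a difference of -14.7 points (-27.1 to 4.41). AP-1, looked at after the values were seen, was in 21 of 26 (80.8%, 62.1 to 91.5%) and 538 of 1240 (43.4%, 40.7 to 46.2%), a difference of 37.4 points (18.5 to 48.4). The median uniqueness was 100% in both sets of copies. With AP-1, 3.76% of copies had a peak, and without it 0.707%. In RMER4B, the RUNX motif was in 6 of 10 copies with a peak and 426 of 1387 without (30.7%), a difference of 29.3 points (0.447 to 52.6). These 6 copies include the reference member, and the lower limit lay near 0, so the values do not settle a difference. Among RMER4B copies aligned over at least 80% of the query the RUNX motif was in 3 of 6 and 224 of 827. The difference was 22.9 points (-8.48 to 54.3), so the interval then included 0. In all, 72 pairs of motif and subfamily were compared in this way, and the interval lay above 0 in 10 and below 0 in 0 of them, with no adjustment for their number. The motifs named were mostly chosen by their share in the peaks of the same subfamily, which favours the copies with a peak.

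**Figure D5:**
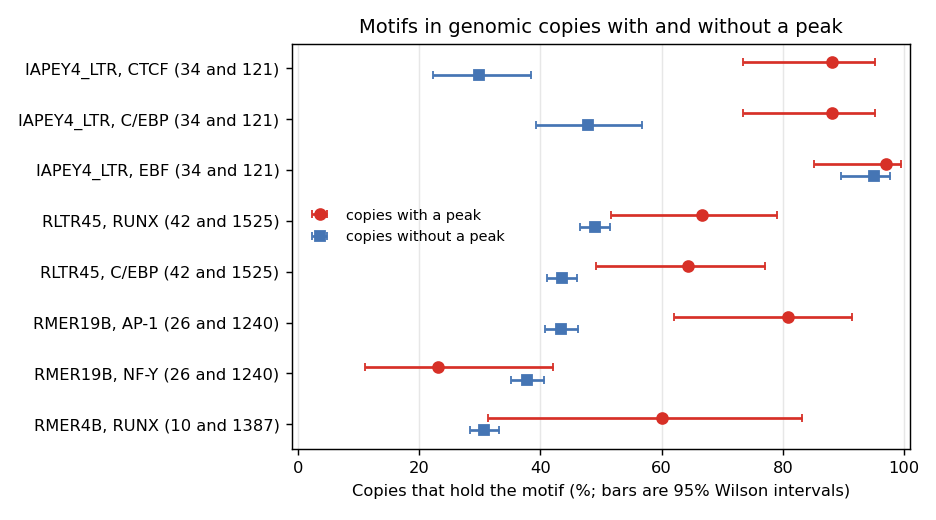
Share of genomic copies (x axis, %) that hold a motif, for copies with a peak (red circles) and without (blue squares), with 95% Wilson intervals and the number of copies in brackets (y axis). CTCF in IAPEY4_LTR (88.2% and 29.8%) and AP-1 in RMER19B (80.8% and 43.4%) differ between the 2 sets of copies, and EBF in IAPEY4_LTR (97.1% and 95%) does not separate the copies.

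Copies with a peak were also more similar to the reference member in IAPEY4_LTR, with a median identity of 96.5% beside 90.1%, and in RLTR45, with 81% beside 78.7%. The reference member is itself a peak, so this order is partly built into the choice. In RMER4B the medians were 72.7% with a peak and 73.4% without. Of the IAPEY4_LTR copies, 1 of 40 at 85 to 90% identity had a peak, and 24 of 71 at 95 to 100%. Copies of lower identity mostly lacked the CTCF motif, and the motif was not tested apart from identity.

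ERVK peaks were scattered over many genes. The 1147 peaks had 1044 different nearest genes, of which 954 were nearest to 1 ERVK peak, 79 to 2, 9 to 3 and 2 to 4. The 2 genes with 4 were Diaph2, which encodes a formin of the actin cytoskeleton, and 2810474O19Rik. Around 2810474O19Rik the peaks were on LTR10_RN, RLTR44A, RLTR45 and ERVB3_1-LTR_MM, each from a different subfamily, at 21.0 to 47.9 kb from the TSS. Those nearest to Diaph2, on the X chromosome, were on RMER17D2, RMER17A2, RMER6C and MLTR25C, at 12.2 to 815 kb. The nearest gene was non-coding or a pseudogene for 16.5% of ERVK peaks, beside 16.4% of peaks outside repeats.

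Some genes that govern blood cells were the nearest gene of an ERVK peak. Of 48 blood transcription factors, 3 were, and their 3 ERVK peaks were 0.421% of the 712 peaks nearest to those genes (0.143 to 1.23%), beside 1.36% of all peaks. Promoter peaks, which cannot carry a repeat name here, are in both denominators. The share of all genes that are nearest to an ERVK peak was not computed, so the gene counts of these lists have no background. An MLTR11B peak with GATA and ETS motifs lay 2.1 kb upstream of Lmo2, which encodes a bridging protein of the GATA1 and TAL1 complex (chr2:103955642-103956140). An MLTR11A peak lay 8.1 kb upstream of Zfpm1, the gene of the GATA1 cofactor FOG1 (chr8:122273790-122274288). An RMER17C peak lay 16.6 kb upstream of the TSS of Runx2, a RUNX factor best known from bone (chr17:44831179-44831677). It was in intron 2 of an annotated transcript.

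Of 47 receptors and lineage markers, 2 were nearest to an ERVK peak, or 2 of 330 peaks (0.606%, 0.166 to 2.18%), an interval that includes the 1.36% of all peaks. An RLTR26_Mus peak lay 3.89 kb upstream of Itgam, which encodes the myeloid integrin CD11b (chr7:128058498-128058996). An RMER19B peak lay 155 kb upstream of Cxcr4, the receptor that holds HSCs in the marrow (chr1:128747169-128747667).

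The shares of the remaining lists were higher but rested on few peaks. Of 26 interferon-induced genes, 4 were nearest to an ERVK peak, which made 3.88% of their 103 peaks (1.52 to 9.56%). Among them was Ddx58, the RNA sensor RIG-I, with a BGLII peak in an intron that held an IRF motif (chr4:40232992-40233490). Mx2 had an RLTR9E peak 12.6 kb upstream, and Ifi44 an RLTR46 peak 102 kb away. Of 19 silencers of ERVK elements, 2 were nearest to such a peak, or 2 of 63 peaks (3.17%, 0.875 to 10.9%). They were Morc3, with an RLTR49 peak that held RUNX and PU.1 motifs 13.1 kb upstream, and Zfp932, a zinc-finger gene, with an RLTR46B peak 27.4 kb away. Nearest promoters are positions, and regulation of these genes by the peaks was not measured.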

How the data were processed

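ATAC-seq was analysed from 1 deposited peak table that covers all 12 samples. According to the methods and labels, the authors mapped their reads to the mm10 genome in the ENCODE pipeline for ATAC-seq, which also gave the peaks and kept no multimapping reads, combined the IDR peak-lists of the 6 cell types, removed overlapping peaks with chromVAR and annotated the result with HOMER version 4.10.2. The deposited values used here are positions and distances in bp. The peak score had 1 value throughout and was not used. No column held values of single samples, so depth per sample was not analysed here. A repeat name applies to the peak centre of intergenic and intron peaks.

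Sequences were read from RefSeq's GRCm38.p6 with samtools version 1.23.1. Subfamily members were aligned with BLAST version 2.17.0, as were the genomic copies. Word uniqueness was counted on both strands of the genome, and the counting and the motif search were tested on simulated sequences, where all 200 motifs planted per family were found. Shares have 95% Wilson intervals and differences Newcombe intervals. No test across samples was possible. Python version 3.11.15 with numpy, scipy, pandas and numba was used.

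The members, gene lists and motifs were chosen with earlier results of these data known. Named were the 10 subfamilies with the most peaks, 5 of them in depth, genes nearest to at least 4 ERVK peaks, and listed genes nearest to any. Other subfamilies with at least 15 peaks, and those in the closing section, were named after their values were seen. One listed gene is not reported here.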

Additional observations from a re-analysis of the deposited data

How the results depend on the processing

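No paired analysis was possible because the list holds no values per sample, and for the same reason no replicate could be left out. A stricter peak score could not be tried, since the score had a single value. Class names without a question mark, autosomes alone, names merged by number, curated RefSeq genes and a second query or reference member left the corresponding results within their limits. With at least 20 peaks asked, 9 subfamilies remained in place of 29. Beyond 50 kb of a TSS lay 30.9% of ERVK peaks and within 5 kb 8.28%, and both differences from peaks outside repeats kept their sign. The median GC content was 49% in the central 200 bp, and 54.5% of peaks had unique 50-base words throughout. With 80% identity asked, the share of copies with a peak was 25% in RMER19B, 4.13% in RLTR45 and 5.26% in RMER4B, beside 22.3% in IAPEY4_LTR. The RMER19B and RMER4B shares rest on few copies. Both include the reference member, which was the only RMER4B copy with a peak at this limit. With 80% coverage the share was 36.8% in IAPEY4_LTR. The motif difference was 1.9 points for RUNX in largely unique RLTR45 copies and 31.9 points for CTCF in IAPEY4_LTR copies covered over 80%. The number of motifs more frequent in ERVK peaks than in all peaks was 11 of 18 in whole peaks and 11 of 18 in the central 200 bp, without a check that they were the same motifs. The single motif shares stayed within their interval in 29 cases and moved in 25, most of these to lower values in the shorter window. Among the 341 ERVK peaks with at least 50% soft-masked bases, ETS (56.3%), RUNX (19.6%) and the E-box CAGCTG (25.2%) moved to lower shares. C/EBP (32.8%), AP-1 (24.9%), CTCF (7.92%), OCT (6.16%), SP/KLF (9.38%) and NF-Y (16.1%) moved to higher ones. Copies too alike to be told apart by 100-base reads can limit what the list shows. Single words do not fix that limit, since 12 of the 34 IAPEY4_LTR copies with a peak had under 50% unique 100-base words.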

Other observations

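Smaller subfamilies that stand outside the comparisons above also had motifs in nearly every peak. The YY1 motif AANATGGC, whose factor is a zinc-finger protein of many promoters, was in all 11 peaks on IAPLTR2_Mm, an IAP LTR (100%, 95% Wilson interval, 74.1 to 100%), beside 8.43% of all peaks. The SP/KLF motif GGGGCGG was in 10 of the 11 (90.9%, 62.3 to 98.4%), beside 14.5% of all peaks. None of the 11 lay in an intron, their median distance to a TSS was 138 kb, and a median of 56% of their 100-base words were unique. The OCT motif ATGCAAAT, bound by POU factors such as OCT2 of B cells, was in all 9 peaks on RLTR10C (100%, 70.1 to 100%), beside 3.37% of all peaks, and these 9 peaks accounted for 22% of the ERVK peaks with that motif.

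Some ERVK peaks came in pairs. In 31 cases neighbouring ERVK peaks lay within 10 kb of each other, and in 9 of them both carried the same subfamily name. IAPEY4_LTR gave 3 of the 9, nearest to Ear10, Gm21190 and Cyp4f18, with centres 7947, 7945 and 8003 bp apart. Near Mrgprb5, an IAPEY4_LTR peak and a peak on IAPEY4_I-int, the internal part of the same element, had centres 532 bp apart.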
